A study of Mus musculus with 20 samples.

Results

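The chambers of the heart express different sets of genes, and 10 of these chamber identity genes were described in embryonic mouse hearts, chosen by name out of 48795 genes measured. They were Nppa and Nppb, which encode natriuretic peptides, Myl2, Myl7 and Myl4, which encode myosin light chains, Myh6 and Myh7, which encode the alpha and beta myosin heavy chains, Sln, which encodes the calcium pump inhibitor sarcolipin, Bmp10, which encodes a secreted growth factor, and Irx4, which encodes a transcription factor. All 10 passed the filter on low values, a normalised read count of at least 10 in at least 5 hearts. The rule named the genes and set no condition on their values.

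In the developing mouse heart Myl7, Sln and, as development proceeds, Myl4 mark atrial muscle, whereas Myl2 and Irx4 mark ventricular muscle, and Irx4 helps to hold atrial genes down in the ventricle. The fetal ventricle makes mainly beta myosin heavy chain from Myh7 and the atrium makes mainly alpha myosin heavy chain from Myh6. Nppa and Bmp10 are made by atrial muscle and by the trabeculae, the muscular ridges that line the fetal ventricle, and Nppb is made by the same muscle and responds to wall stress.

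RNA sequencing (RNAseq) was carried out on 20 whole hearts at E13.5 (embryonic day), when division of the chambers is nearly complete, in 4 groups of 5. Dp3Tyb hearts carry Dp(16Mir802-Zbtb21)3TybEmcf and Ts1Rhr hearts carry Dp(16Cbr1-Fam3b)1Rhr, which are duplications on chromosome 16 that model part of Down syndrome, the second shorter and nested in the first. The study used littermate wildtype (WT) controls, and the WT hearts labelled wt_d and wt_t were taken from these labels as the controls of Dp3Tyb and Ts1Rhr, named here WT_Dp3Tyb and WT_Ts1Rhr. All animals were on the C57BL/6J background. Dp3Tyb embryos develop heart defects and Ts1Rhr embryos are described as free of them, although the labels of Ts1Rhr replicates 1 and 2 mention defects, and all 5 were kept. The duplications are present in every cell of the embryo and in no group were chambers separated. The comparison therefore asks whether the balance of atrial and ventricular transcripts in a whole heart differs with either duplication. No chamber gene passed the test in either strain, where 0.0542% (Dp3Tyb) and 0.0269% (Ts1Rhr) of all genes tested did. Of 10 pairs of chamber genes, 3 passed a test of relation across hearts. Relative to general cardiomyocyte genes none passed, with r of 0.438 to 0.688 for these 3. In such bulk samples fewer cells of a type and less RNA per cell cannot be told apart.

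The libraries held between 6.60 and 19.6 M reads. Among protein-coding genes inside the duplicated segments, 27 of 27 tested were estimated higher in Dp3Tyb and 21 of 22 in Ts1Rhr. The median fold over these genes was 1.44 in Dp3Tyb and 1.41 in Ts1Rhr. Averaged over genes on the log2 scale, their level was 1.54 to 1.68 times the WT mean in the 5 Dp3Tyb hearts. It was 1.24 to 1.42 times in the 5 Ts1Rhr hearts. The WT hearts lay between 0.899 and 1.16 and between 0.937 and 1.08 times their own mean. Mitochondrially encoded reads made up 10.5% to 19.5% of reads in 7 hearts (WT_Dp3Tyb 5, Dp3Tyb 5, WT_Ts1Rhr 1, 2 and 4, and Ts1Rhr 1 and 2) and 4.85% to 7.17% in the other 13, so these 7 stood apart and results were also computed without them. All 10 general cardiomyocyte markers were read in every heart, with summed values from 196185 to 299317. Lung and foregut markers summed to 99.8 to 893, with 2 of 7 read in every heart, and red cell markers to 24821 to 212355. All values below are normalised read counts, reads divided by a size factor of the library.

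Some of the chamber genes lie side by side in the genome (GRCm38.p6 positions, RefSeq). Nppb spans chr4:147985786-147987205 and Nppa chr4:148000722-148002074, both on the plus strand with 13516 bases between them. Myh6 spans chr14:54941921-54968017 and Myh7 chr14:54970684-54994626, both on the minus strand with 2666 bases between them. The other members are spread over 5 chromosomes, with Myl2 at chr5:122092724-122113473, Myl7 at chr11:5896637-5898782, Myl4 at chr11:104546017-104587215, Sln at chr9:53850251-53853849, Bmp10 at chr6:87428994-87434512 and Irx4 at chr13:73259589-73269622.

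Upstream sequence is shown for Myh6 and Myh7, the pair whose ratio came closest to a difference, and for Myl7, the atrial partner in the light chain ratio. Each stretch ends just before the start of the canonical transcript, reads 5′ to 3′ on the strand of the gene, and carries in capitals the letters that match a motif (RefSeq windows of GRCm38.p6, 250 bases before the RefSeq start, cut at the canonical start). The Myh6 stretch lies inside the RefSeq span of Myh6 given above, which begins farther upstream than the canonical transcript.
Myl7 (chr11:5898793-5899032, minus strand): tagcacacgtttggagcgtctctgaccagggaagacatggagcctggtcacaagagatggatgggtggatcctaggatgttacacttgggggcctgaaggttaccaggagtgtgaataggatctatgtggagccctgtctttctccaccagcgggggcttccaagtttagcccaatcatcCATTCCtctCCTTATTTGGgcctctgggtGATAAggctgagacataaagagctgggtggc
Myh6 (chr14:54966769-54966857, minus strand): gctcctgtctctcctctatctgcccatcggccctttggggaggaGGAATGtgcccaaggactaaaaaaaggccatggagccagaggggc
Myh7 (chr14:54994627-54994876, minus strand): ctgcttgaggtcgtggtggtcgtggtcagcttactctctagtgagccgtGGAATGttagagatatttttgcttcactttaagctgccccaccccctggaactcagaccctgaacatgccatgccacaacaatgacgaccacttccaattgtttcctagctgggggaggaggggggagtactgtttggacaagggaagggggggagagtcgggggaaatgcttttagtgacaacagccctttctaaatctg

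The motifs searched were the TATA box TATAAA on the sense strand and, on both strands, GATAA (the core bound by GATA factors), CATTCC (the MCAT site of TEAD factors), the MEF2 site and the CArG box of serum response factor. A window holding the canonical start was found for 7 of the 10 members. CATTCC was in the windows of 4 of these 7 (Myl7, Myh6, Myh7 and Nppb), against 12.6% of all 32851 windows. It lay at bases -206 to -201 from the RefSeq start of Myh6 and at -201 to -196 from that of Myh7, in both as its reverse complement on the strand of the gene, and at -70 to -65 of Myl7. GATAA was in 4 of 7 (Nppa, Nppb, Myl7 and Bmp10) against 22.6%, TATAAA in 2 of 7 (Nppa and Nppb) against 7.59%, the CArG box in 1 of 7 (Myl7, shown as CCTTATTTGG) against 1.47%, and the MEF2 site in 0 of 7 against 2.92%. No match overlapped another. The matches in the Nppb window and TATAAA in the Nppa window lie past the canonical start, so that before it CATTCC was in 3 of 7, GATAA in 3 and TATAAA in 0. A match describes letters in a window and was not tested for binding.

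Together the 10 chamber genes took 1.52% to 2.23% of all reads per heart, with a median of 1.89%. Per kilobase of canonical transcript Myl2 was highest, at 51484 ± 8315 (SD, n = 20 hearts), and it exceeded the next gene, Myh7, in 20 of 20 hearts. Myh7 stood at 21400 ± 3474, Myl4 at 18423 ± 1989, Myl7 at 17218 ± 1772, Nppa at 12970 ± 2589 and Myh6 at 10793 ± 1684 per kilobase. Neighbours within this middle range were not separated in every heart, since Myh7 exceeded Myl4 in 18 of 20, Myl4 exceeded Myl7 in 14, Myl7 exceeded Nppa in 18 and Nppa exceeded Myh6 in 14.

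The remaining members were much lower. Nppb stood at 1142 ± 274 per kilobase, below Myh6 in 20 of 20 hearts, Bmp10 at 555 ± 101, below Nppb in 19, Irx4 at 272 ± 31.9, below Bmp10 in 20, and Sln at 68.1 ± 13.7, below Irx4 in 20. Sln was thus the least abundant, with 28 to 155 recovered reads per heart, whereas Myh7 alone gave 62222 to 181044. The order placed a ventricular gene first and a gene of atrial muscle last, in hearts of all 4 groups.

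The dispersion between hearts of a group is given as a description. The SD within groups on the log2 scale was smallest for Myl7 at 0.15 and Myl4 at 0.16, and largest for Nppb at 0.45, followed by Nppa at 0.28, Sln at 0.28 and Bmp10 at 0.27. Without WT_Ts1Rhr 5, an omission made after seeing the data, the SD of Nppb was 0.28, so its place rested on that heart. The same heart had the largest deviation of Sln from its group mean, 0.70 on the log2 scale. The SD of the other genes was not computed without it.

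**Figure D1:**
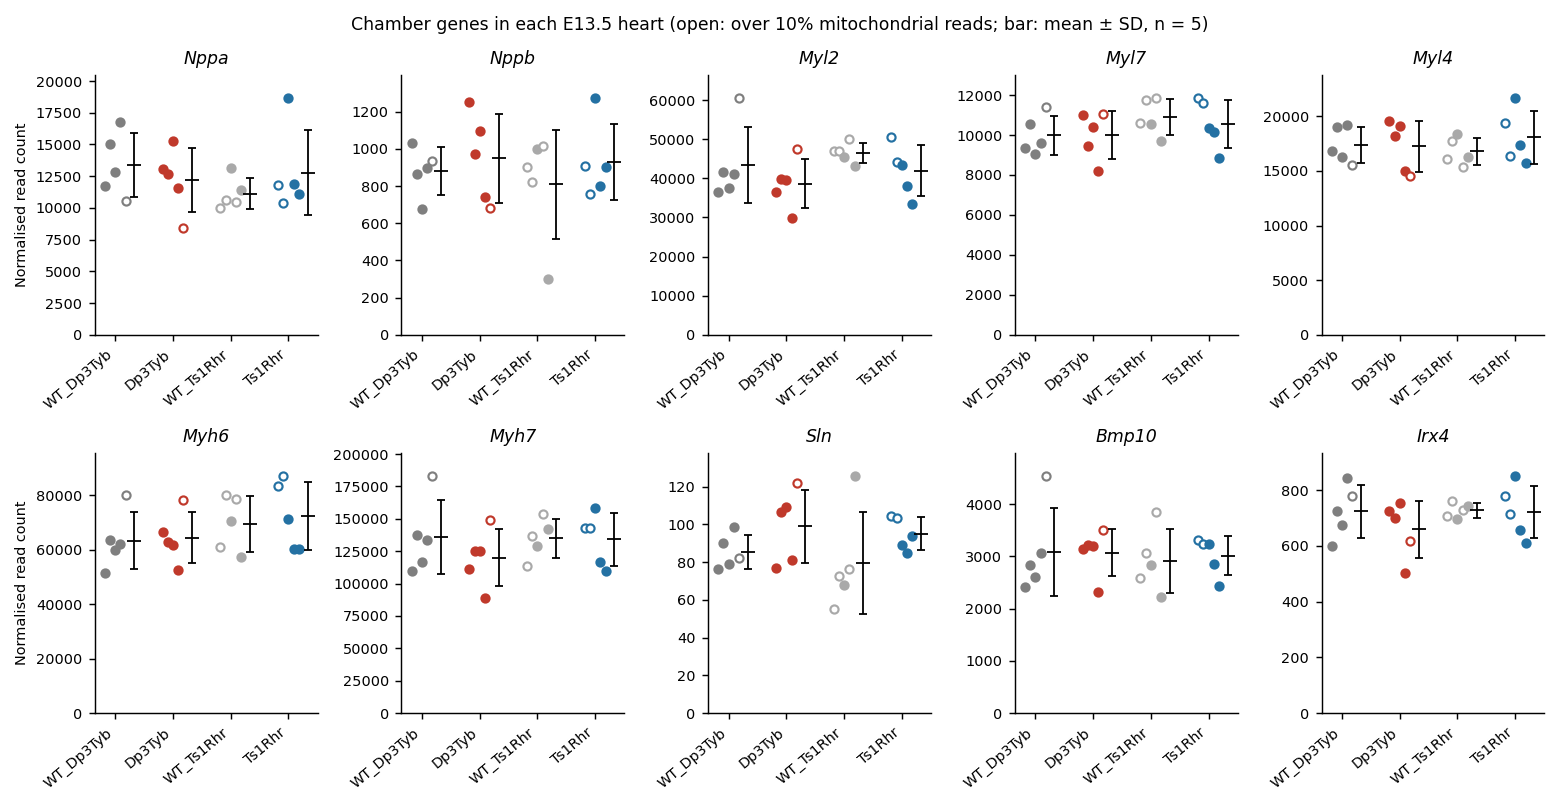
Normalised read count (y axis, linear from 0) of each chamber gene in each of 20 hearts, by group on the x axis, with open circles for the 7 hearts over 10% mitochondrial reads and the mean ± SD of 5 hearts at the right of each group. For every gene the 4 groups overlap, and single hearts stand apart for Nppa (Ts1Rhr 3), Nppb (WT_Ts1Rhr 5) and Myl2 (WT_Dp3Tyb 5).

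The natriuretic peptide genes were compared first. Nppa, the atrial natriuretic peptide gene, had values of 11696, 15051, 12848, 16809 and 10532 in the 5 WT_Dp3Tyb hearts and 13036, 12648, 15251, 11578 and 8399 in the 5 Dp3Tyb hearts. It had values of 9994, 10641, 13107, 10446 and 11406 in WT_Ts1Rhr and 11770, 10353, 18652, 11868 and 11127 in Ts1Rhr. The groups overlapped in both cohorts, and Ts1Rhr 3 was the highest heart of the series. The log2 fold change of mutant over WT (± SE, limma on log2(value + 1), 5 hearts against 5) was -0.14 ± 0.17 in Dp3Tyb and 0.17 ± 0.14 in Ts1Rhr, and neither passed the threshold. With each heart left out in turn, the estimate ran from -0.23 (without Dp3Tyb 3) to -0.01 (without Dp3Tyb 5) in Dp3Tyb and from 0.03 (without Ts1Rhr 3) to 0.24 (without Ts1Rhr 2) in Ts1Rhr. The difference between these changes was -0.31 ± 0.23, and did not pass (limma adjusted p = 1.0), and it ran from -0.40 (without Dp3Tyb 3) to -0.17 (without Ts1Rhr 3).

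Nppb, the neighbouring B-type natriuretic peptide gene, had values of 1029, 863, 679, 899 and 937 in WT_Dp3Tyb and 1252, 973, 1098, 742 and 679.7 in Dp3Tyb. It had values of 905, 821, 1001, 1016 and 301 in WT_Ts1Rhr and 909, 758, 1273, 801 and 904 in Ts1Rhr. WT_Ts1Rhr 5 was far below every other heart, and otherwise the groups overlapped. The log2 fold change was 0.08 ± 0.17 in Dp3Tyb and 0.30 ± 0.29 in Ts1Rhr. With 1 heart left out it ran from -0.03 (without Dp3Tyb 1) to 0.19 (without Dp3Tyb 5) in Dp3Tyb and from -0.03 (without WT_Ts1Rhr 5) to 0.41 (without WT_Ts1Rhr 4) in Ts1Rhr. Without the hearts over 10% mitochondrial reads it was 0.22 in Dp3Tyb and 0.83 in Ts1Rhr, where WT_Ts1Rhr 3 and 5 are left against Ts1Rhr 3, 4 and 5, and no value passed the threshold. WT_Ts1Rhr 5 also held the most red cell marker transcripts of the series, 212355 against 42236 to 94035 in the other WT_Ts1Rhr hearts, and the part of this in its Nppb value was not tested.

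Among the ventricular genes, Myl2, the ventricular regulatory light chain, had values of 36371, 41508, 37492, 41195 and 60491 in WT_Dp3Tyb and 36384, 39919, 39536, 29944 and 47421 in Dp3Tyb. It had values of 47047, 46897, 45575, 49982 and 43029 in WT_Ts1Rhr and 50568, 44220, 43494, 38110 and 33384 in Ts1Rhr. WT_Dp3Tyb 5, the heart with the highest mitochondrial share, was the highest and Dp3Tyb 4, the heart with the most lung and foregut and the fewest cardiomyocyte transcripts, was the lowest. The log2 fold change was -0.16 ± 0.16 in Dp3Tyb and -0.16 ± 0.10 in Ts1Rhr, and neither passed the threshold. It ran from -0.24 (without Dp3Tyb 5) to -0.03 (without WT_Dp3Tyb 5) in Dp3Tyb and from -0.23 (without Ts1Rhr 1) to -0.08 (without Ts1Rhr 5) in Ts1Rhr with 1 heart left out, and was -0.11 and -0.22 without the hearts over 10% mitochondrial reads.

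Myh7, the beta myosin heavy chain, had values of 109385, 137841, 116819, 133943 and 182684 in WT_Dp3Tyb and 111373, 124891, 124767, 88996 and 149221 in Dp3Tyb. It had values of 113634, 136663, 129193, 154010 and 142105 in WT_Ts1Rhr and 143070, 142571, 158305, 116553 and 109689 in Ts1Rhr. WT_Dp3Tyb 5 was again the highest heart and Dp3Tyb 4 again the lowest. The log2 fold change was -0.18 ± 0.17 in Dp3Tyb and -0.02 ± 0.12 in Ts1Rhr. With 1 heart left out the Myh7 estimate ran from -0.26 (without Dp3Tyb 5) to -0.07 (without WT_Dp3Tyb 5) in Dp3Tyb and from -0.08 (without Ts1Rhr 3) to 0.05 (without Ts1Rhr 5) in Ts1Rhr. Irx4, the ventricular transcription factor, ranged from 599 to 845 in WT_Dp3Tyb, 502 to 753 in Dp3Tyb, 697 to 763 in WT_Ts1Rhr and 612 to 849 in Ts1Rhr, with log2 fold changes of -0.14 ± 0.13 and -0.02 ± 0.09. These ran from -0.21 (without WT_Dp3Tyb 1) to -0.05 (without Dp3Tyb 4) in Dp3Tyb and from -0.08 (without Ts1Rhr 3) to 0.04 (without Ts1Rhr 5) in Ts1Rhr, and Dp3Tyb 4 is the heart with the fewest cardiomyocyte transcripts. The narrow WT_Ts1Rhr group lay inside the range of Ts1Rhr.

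Among the atrial genes, Myl7, the atrial regulatory light chain, ranged from 9058 to 11412 in WT_Dp3Tyb, 8206 to 11039 in Dp3Tyb, 9712 to 11832 in WT_Ts1Rhr and 8841 to 11847 in Ts1Rhr. Its log2 fold change was 0.00 ± 0.10 in Dp3Tyb, with a 95% interval from -0.22 to 0.22, and -0.05 ± 0.09 in Ts1Rhr. Myl4, the atrial and fetal essential light chain, ranged from 15549 to 19181 in WT_Dp3Tyb, 14576 to 19533 in Dp3Tyb, 15390 to 18342 in WT_Ts1Rhr and 15689 to 21661 in Ts1Rhr, with log2 fold changes of -0.01 ± 0.11 and 0.10 ± 0.09. With 1 heart left out Myl7 ran from -0.04 (without Dp3Tyb 5) to 0.07 (without Dp3Tyb 4) in Dp3Tyb and from -0.09 (without Ts1Rhr 1) to 0.01 (without Ts1Rhr 5) in Ts1Rhr, and Myl4 from -0.06 (without Dp3Tyb 1) to 0.04 (without Dp3Tyb 5) and from 0.03 (without Ts1Rhr 3) to 0.15 (without Ts1Rhr 5). These 2 light chains had the narrowest intervals of the 10 in Dp3Tyb.

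Sln, the inhibitor of the sarcoplasmic calcium pump, had values of 76.5, 89.8, 78.8, 98.7 and 82.2 in WT_Dp3Tyb and 76.6, 106, 109, 81.1 and 122 in Dp3Tyb. It had values of 55.1, 72.7, 68.1, 76.6 and 125 in WT_Ts1Rhr and 104, 103, 88.8, 85.0 and 93.6 in Ts1Rhr. The 5 Ts1Rhr hearts exceeded 4 of the 5 WT_Ts1Rhr hearts, and WT_Ts1Rhr 5 exceeded them all. The log2 fold change was 0.20 ± 0.15 in Dp3Tyb and 0.30 ± 0.19 in Ts1Rhr, the largest estimate of the 10 members in each strain with all hearts in. It ran from 0.12 (without Dp3Tyb 5) to 0.28 (without Dp3Tyb 1) in Dp3Tyb and from 0.19 (without WT_Ts1Rhr 1) to 0.48 (without WT_Ts1Rhr 5) in Ts1Rhr with 1 heart left out. Without the 7 hearts over 10% mitochondrial reads it was 0.11 in Dp3Tyb and -0.05 in Ts1Rhr. In that Ts1Rhr comparison only WT_Ts1Rhr 3 and 5 are left as WT, and WT_Ts1Rhr 5 is the highest Sln heart of the series.

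Myh6, the alpha myosin heavy chain, ranged from 51405 to 79906 in WT_Dp3Tyb, 52488 to 78403 in Dp3Tyb, 57458 to 80190 in WT_Ts1Rhr and 60078 to 86874 in Ts1Rhr, with log2 fold changes of 0.03 ± 0.14 and 0.05 ± 0.13. Bmp10, the trabecular growth factor, ranged from 2422 to 4533, 2317 to 3501, 2228 to 3849 and 2443 to 3307 in the same groups, with log2 fold changes of 0.02 ± 0.17 and 0.07 ± 0.13. The groups of each cohort overlapped for both genes. With 1 heart left out Myh6 ran from -0.05 (without Dp3Tyb 5) to 0.11 (without WT_Dp3Tyb 5) in Dp3Tyb and from -0.02 (without Ts1Rhr 2) to 0.12 (without Ts1Rhr 5) in Ts1Rhr, and Bmp10 from -0.06 (without WT_Dp3Tyb 1) to 0.16 (without WT_Dp3Tyb 5) and from -0.03 (without WT_Ts1Rhr 5) to 0.17 (without WT_Ts1Rhr 4).

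None of the 10 chamber genes passed the threshold of an adjusted p of 0.05 in either strain (limma over all genes tested, 2-sided). The labels call the samples separate hearts and give no litter or dissection day, so p-values measure the spread between these hearts only. In Dp3Tyb 0 of 10 were called against 0.0542% of the 14763 genes tested, and every member had an adjusted p of 1.0. In Ts1Rhr 0 of 10 were called against 0.0269% of the 14867 genes tested, with adjusted p from 0.795 to 0.970. At an unadjusted p under 0.05 the counts were also 0 of 10 in each strain, against 2.80% and 5.52% of all genes. DESeq2 called 0 of 10 in each strain (0.181% and 0.175% of all genes) and edgeR 0 of 10 (0.0610% and 0.0269%). For 0 of 10 members did the groups of a cohort not overlap, which held for 0.975% of genes for Dp3Tyb and its WT and 1.12% for Ts1Rhr and its WT. The difference between the strains was called for 0 of 10 members by limma, DESeq2 and edgeR (0.0130%, 0.0111% and 0.0130% of all genes).

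The 95% intervals give the changes that these comparisons of 5 against 5 hearts leave possible. The median log2 fold change over the 10 members was -0.0063 in Dp3Tyb and 0.060 in Ts1Rhr, beside -0.0027 and -0.0016 over all genes. The 95% interval of the fold of Myl7 in Dp3Tyb over WT ran from 0.859 to 1.17, that of Myl2 from 0.705 to 1.14, that of Myh7 from 0.683 to 1.14 and that of Nppa from 0.701 to 1.17. In Ts1Rhr the interval of the fold ran from 0.844 to 1.11 for Myl7, 0.764 to 1.05 for Myl2, 0.908 to 1.40 for Nppa and 0.786 to 1.92 for Nppb, the widest. The missing calls do not show that levels were equal.

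**Figure D2:**
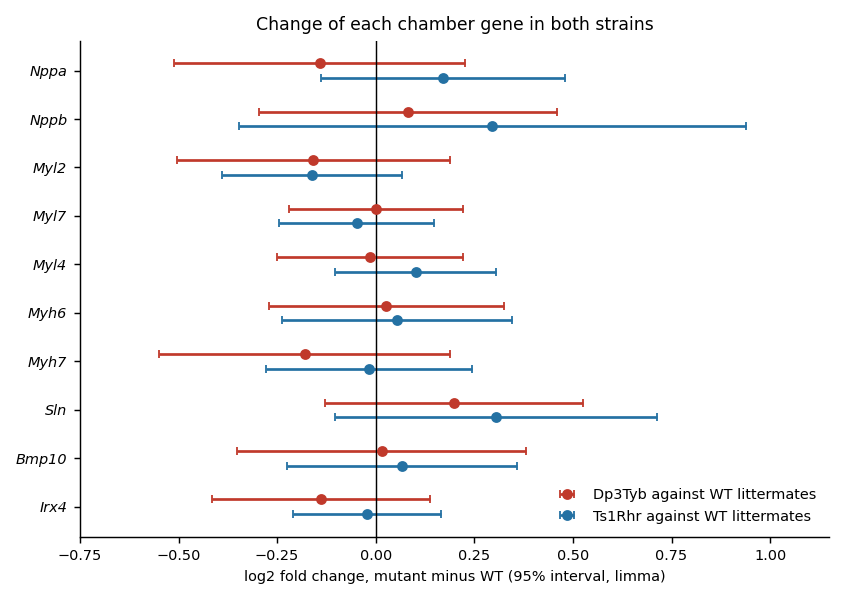
Log2 fold change of each chamber gene (x axis, mutant minus WT, limma) with its 95% interval in Dp3Tyb and in Ts1Rhr, 5 hearts against 5 littermates each. All 20 intervals include 0, and Nppb in Ts1Rhr has the widest.

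Ratios within a heart set genes against each other without the scaling of the library. Myh6 to Myh7 and Myl7 to Myl2 set an atrial against a ventricular gene, whereas Nppa to Nppb and Myl4 to Myl7 do not. The ratio of Myh6 to Myh7, alpha to beta myosin heavy chain, was 0.470, 0.461, 0.512, 0.462 and 0.437 in the WT_Dp3Tyb hearts and 0.596, 0.504, 0.496, 0.590 and 0.525 in the Dp3Tyb hearts. All 5 Dp3Tyb hearts were above the WT mean, and the groups overlapped only through WT_Dp3Tyb 3, at 0.512, which exceeded Dp3Tyb 2 and 3. The mean ratio was 0.469 ± 0.0271 in WT_Dp3Tyb and 0.542 ± 0.0476 in Dp3Tyb (SD, n = 5), a log2 difference of 0.21 ± 0.07 (SE) or 15.5%, with an exact permutation p of 0.0238 (2-sided, over 252 splits) that became 0.0952 after adjustment over the 4 ratios and did not pass. The estimate lost the unadjusted threshold without WT_Dp3Tyb 5 (0.18, exact p = 0.0556) and without the hearts over 10% mitochondrial reads (0.19, exact p = 0.0857).

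In the Ts1Rhr cohort the ratio of Myh6 to Myh7 was 0.535, 0.587, 0.545, 0.510 and 0.404 in WT and 0.582, 0.609, 0.450, 0.517 and 0.548 in Ts1Rhr hearts, and the lowest heart of the series was WT_Ts1Rhr 5. The log2 difference was 0.07 ± 0.12 (exact p = 0.548, adjusted 0.730), and it turned sign without WT_Ts1Rhr 5 (-0.01) and without the 2 hearts labelled with defects (-0.03). The difference between the strains was 0.14 ± 0.14 (exact permutation over 63504 pairs of splits, p = 0.376, adjusted 0.752), so the 2 strains were not shown to differ. Myh6 and Myh7 are near-identical in places, as 22.2% of the 50-base windows of the Myh6 transcript occur in that of Myh7, and the program named in the processing notes can divide such reads between genes, so both levels and their ratio carry that uncertainty in every group.

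The ratio of Myl7 to Myl2, atrial to ventricular light chain, was 0.257, 0.254, 0.242, 0.233 and 0.189 in WT_Dp3Tyb and 0.303, 0.236, 0.263, 0.274 and 0.233 in Dp3Tyb. It was 0.225, 0.251, 0.231, 0.237 and 0.226 in WT_Ts1Rhr and 0.234, 0.262, 0.238, 0.267 and 0.265 in Ts1Rhr. Among Dp3Tyb hearts 4 of 5 and among Ts1Rhr hearts 5 of 5 were above the mean of the matching WT group, with overlap of the groups in both cohorts. The log2 difference was 0.16 ± 0.11 in Dp3Tyb (exact p = 0.183, adjusted 0.365) and 0.11 ± 0.05 in Ts1Rhr (exact p = 0.0635, adjusted 0.254). With 1 heart left out it ran from 0.08 (without WT_Dp3Tyb 5) to 0.20 (without Dp3Tyb 5) in Dp3Tyb and from 0.09 (without Ts1Rhr 4) to 0.14 (without Ts1Rhr 1) in Ts1Rhr. In Ts1Rhr the unadjusted exact p passed the threshold without WT_Ts1Rhr 2 (0.0476), Ts1Rhr 1 (0.0317) or Ts1Rhr 3 (0.0476), and not without any of the other 7 hearts. The difference between the strains was 0.05 ± 0.12 (exact p = 0.744, adjusted 0.857) and ran from -0.03 (without WT_Dp3Tyb 5) to 0.09 (without Dp3Tyb 5).

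The other ratios were also not separated. Nppa to Nppb had a mean of 15.5 ± 3.91 in WT_Dp3Tyb, 13.1 ± 1.91 in Dp3Tyb, 17.1 ± 11.7 in WT_Ts1Rhr and 13.7 ± 1.08 in Ts1Rhr (SD, n = 5), with exact p of 0.302 and 0.952. WT_Ts1Rhr 5 stood apart at 37.9, and the log2 difference in Ts1Rhr ran from -0.26 (without WT_Ts1Rhr 4) to 0.21 (without WT_Ts1Rhr 5). Myl4 to Myl7 had a mean of 1.75 ± 0.235, 1.73 ± 0.238, 1.55 ± 0.171 and 1.72 ± 0.247 in the same groups, with exact p of 0.810 and 0.254, and its log2 difference ran from -0.10 (without WT_Dp3Tyb 5) to 0.08 (without Dp3Tyb 5) in Dp3Tyb and from 0.08 (without Ts1Rhr 3) to 0.22 (without Ts1Rhr 2) in Ts1Rhr. The mean log2 level of Myl7, Myl4 and Sln minus that of Myl2, Myh7 and Irx4, given as a description with no test, was -2.71 ± 0.20 in WT_Dp3Tyb, -2.49 ± 0.09 in Dp3Tyb, -2.78 ± 0.11 in WT_Ts1Rhr and -2.59 ± 0.10 in Ts1Rhr (SD, n = 5). Its lowest heart was WT_Dp3Tyb 5 at -3.06 and its highest was Dp3Tyb 4 at -2.35, the hearts with the lowest and the highest lung and foregut marker sums.

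**Figure D3:**
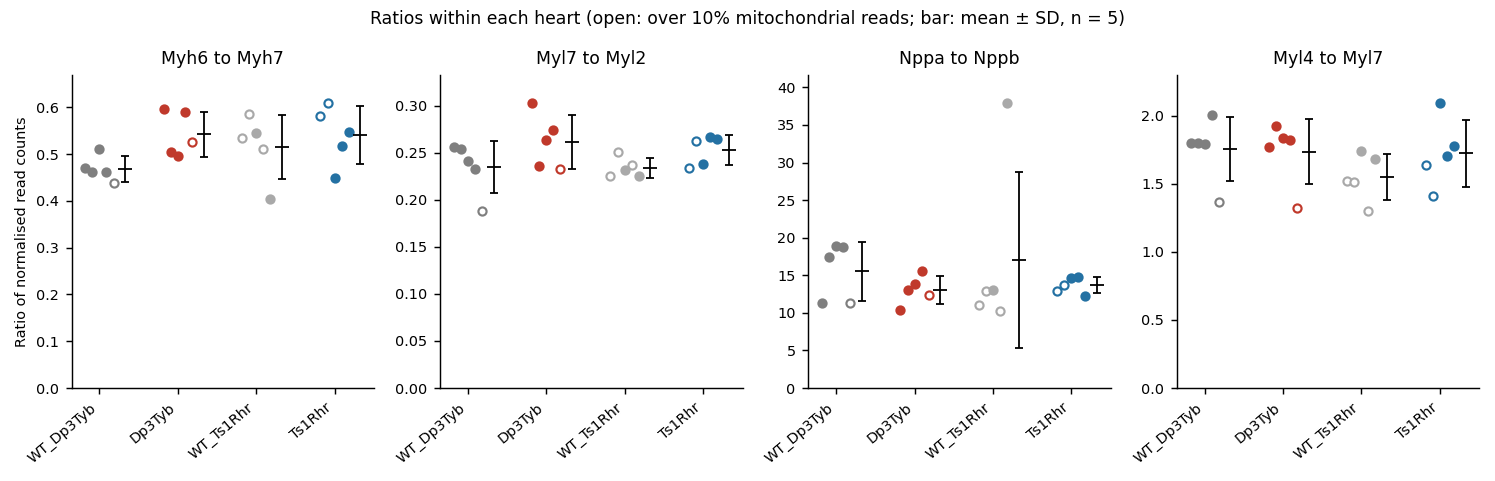
Ratio of normalised read counts (y axis, linear from 0) of 4 pairs of chamber genes in each heart, by group on the x axis, with open circles for hearts over 10% mitochondrial reads and the mean ± SD of 5 hearts. Myh6 to Myh7 is 0.437 to 0.512 in WT_Dp3Tyb and 0.496 to 0.596 in Dp3Tyb, and 1 WT_Ts1Rhr heart reaches 37.9 for Nppa to Nppb.

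Whether chamber genes varied together from heart to heart was asked for 10 fixed pairs, after the group means were removed. Myl2 and Myh7, both ventricular, were related most closely over the 20 hearts (Pearson r = 0.883, Spearman rho = 0.881), and with 10 relations computed the Benjamini-Hochberg adjusted permutation p was 0.0003 for r and 0.0007 for rho. The relation was r = 0.983 in the Dp3Tyb cohort alone and r = 0.661 (adjusted permutation p = 0.284) in the Ts1Rhr cohort alone. Without the 2 hearts farthest from the median, WT_Dp3Tyb 5 and Dp3Tyb 4, r was 0.765, and without the 7 hearts over 10% mitochondrial reads it was 0.927.

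The other 2 pairs past the threshold joined genes of different chambers. Myl7 and Myl2, the atrial and ventricular regulatory light chains, gave r = 0.821, Spearman rho = 0.820 (adjusted permutation p of 0.0003 for r and 0.00075 for rho), with r = 0.802 and 0.887 in the cohorts and 0.741 without the 2 farthest hearts. Myh6 and Myh7 gave r = 0.789, Spearman rho = 0.744 (adjusted permutation p of 0.00157 for r and 0.0041 for rho), with r = 0.938 and 0.629 (adjusted permutation p = 0.284) in the cohorts and 0.673 without the 2 farthest hearts. When the mean log2 level of 10 general cardiomyocyte genes was subtracted from every gene, none of the 10 relations passed, and r was 0.688 for Myl2 and Myh7 (adjusted permutation p = 0.103), 0.438 for Myl7 and Myl2 (0.132) and 0.507 for Myh6 and Myh7 (0.103).

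**Figure D4:**
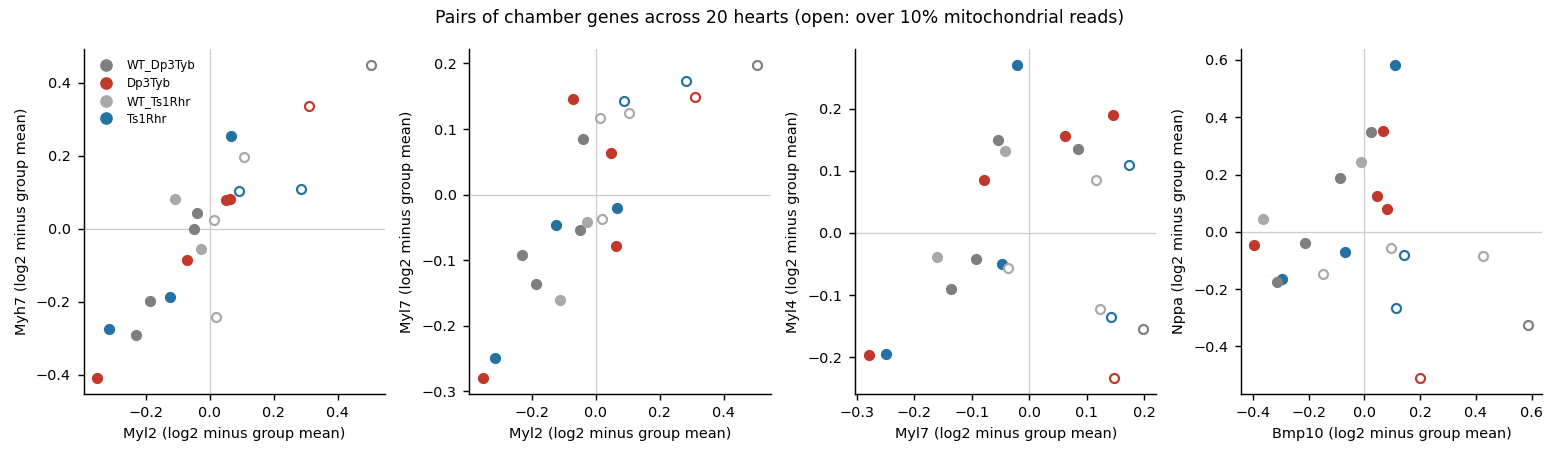
Log2 level minus the group mean of one chamber gene (x axis) against another (y axis) in 20 hearts, coloured by group, with open circles for the 7 hearts over 10% mitochondrial reads. Hearts with more Myl2 have more Myh7 and Myl7, whereas for Myl7 against Myl4 and Bmp10 against Nppa most open circles lie below the filled ones at the same x.

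In the remaining 7 pairs no relation passed over 20 hearts, with r from -0.180 for Nppa and Myl7 to 0.570 for Myl2 and Irx4 (adjusted permutation p = 0.0932). In 2 of them the 7 hearts over 10% mitochondrial reads lay apart from the rest. For Myl7 and Myl4 r was 0.208 over 20 hearts and 0.848, Spearman rho = 0.885 over the other 13 (adjusted permutation p of 0.0027 for r and 0.0039 for rho). For Nppa and Bmp10 r was -0.120 and 0.781, Spearman rho = 0.824 respectively (adjusted permutation p of 0.0127 for r and 0.0039 for rho). Myl2 and Irx4 also passed in the 13 hearts, at r = 0.884, Spearman rho = 0.846 (adjusted permutation p of 0.0127 for r and 0.0275 for rho). Sln followed none of the genes it was set against, with r of 0.0622 with Myl7 and -0.0421 with Myl4, and with 28 to 155 reads per heart its counting error is large beside that of the others.

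The 7 hearts over 10% mitochondrial reads differed from their own group means in a gene-specific way, given here as a description. Nppa was below its group mean in 7 of 7, with a median deviation of -0.15 on the log2 scale, and Myl2 was above in 7 of 7, with a median of 0.11. Myl7, Myh6, Myh7 and Bmp10 were above in 6 of 7 each, whereas Myl4 was above in 2 of 7. The ratio of Myl4 to Myl7 was below the group mean in 7 of 7 of these hearts, with a median of -0.25, and above it in 12 of the other 13. Irx4, Nppb and Sln were above in 4 of 7 each. Of these hearts 1 was in WT_Dp3Tyb, 1 in Dp3Tyb, 3 in WT_Ts1Rhr and 2 in Ts1Rhr, and 6 of the 7 (all but WT_Ts1Rhr 4) carry consecutive serial library names in the labels. The part of the mitochondrial share, and of whatever the library order stands for, in these shifts was not tested.

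**Figure D5:**
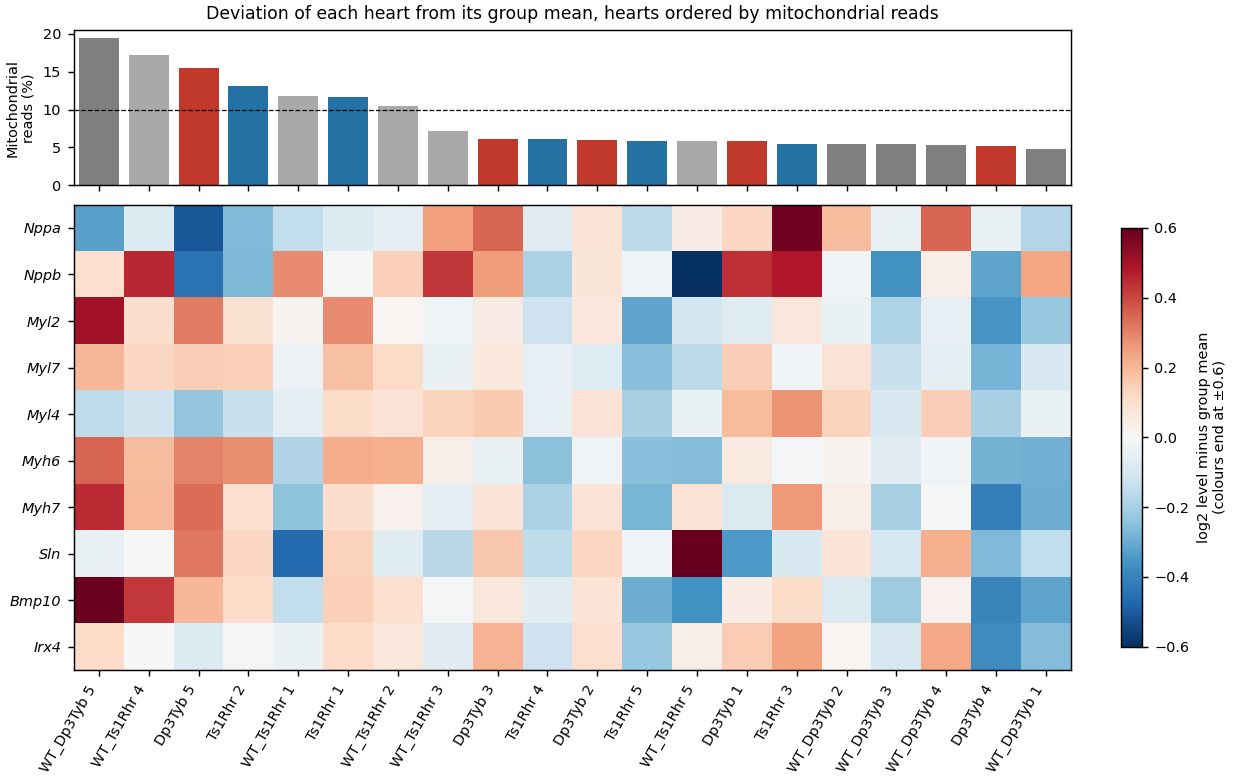
Top, mitochondrially encoded reads (% of reads) in each heart, ordered from highest to lowest and coloured by group, with a dashed line at 10%. Bottom, log2 level of each chamber gene minus its group mean (red above, blue below, colours ending at ±0.6), where Nppa is blue and Myl2 red in the 7 hearts at the left.

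Single hearts had their own combinations. Dp3Tyb 4 was the lowest of its group for 6 members and the next to lowest for the other 4, at 29944 for Myl2, 88996 for Myh7, 8206 for Myl7, 2317 for Bmp10 and 502 for Irx4, and it also held the lowest cardiomyocyte marker sum (196185) and the highest lung and foregut marker sum (893) of the series. WT_Dp3Tyb 5 was the highest heart of the series for Myl2, Myh7 and Bmp10, at 4533 for Bmp10, and held the lowest lung and foregut sum (99.8), the fewest reads and the highest mitochondrial share. WT_Ts1Rhr 5 combined the lowest Nppb with the highest Sln, 125, and the lowest Bmp10, 2228. The part of attached tissue, blood or RNA quality in these values was not tested.

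The genes whose pattern over the 20 hearts was most like that of a chamber gene were ranked by Pearson r after removal of group means, over 15348 genes and as a description with no p. For Myl2 the first 5 were Tnnc1 (r = 0.978), which encodes the cardiac and slow muscle troponin C, Tmod1 (0.972), Myom1 (0.970), Idh3b (0.963) and Sh3bgr (0.957). For Myl7 they were Ccdc141 (0.928), C030037D09Rik (0.926), Smyd1 (0.911), Cyria (0.910) and Rasgef1b (0.908). The neighbours of Myl2 included the sarcomere genes Tnnc1, Tmod1 and Myom1. Tnnc1 is also among the general cardiomyocyte genes subtracted above. For Nppb they were Zfp568 (0.860), Plk4 (0.852), Ccn2 (0.840), Hdac1 (0.831) and Mmd (0.815), and this list rested on WT_Ts1Rhr 5, since without that heart r was 0.477 to 0.685 and 0 of these 5 genes remained among the first 5.

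Further chamber genes were taken from 4 lists. Beside the counts below, limma called 0.0542% (Dp3Tyb) and 0.0269% (Ts1Rhr) of all genes tested. In the atrial list (Nr2f1, Nr2f2, Tbx5, Kcna5, Kcnj3, Kcnj5, Stard10, Angpt1, Dkk3 and Pam) 0 of 10 rose and 0 fell in either strain by limma, with medians of 0.02 in Dp3Tyb and -0.03 in Ts1Rhr. The largest estimates were those of Nr2f1 (0.14 ± 0.13), Kcnj3 (0.07 ± 0.12) and Nr2f2 (0.06 ± 0.12) in Dp3Tyb, and Nr2f2 (-0.17 ± 0.13), Dkk3 (0.17 ± 0.07) and Tbx5 (-0.16 ± 0.13) in Ts1Rhr. Nr2f1 and Nr2f2 encode nuclear receptors that set atrial identity, and Nr2f2 was estimated on opposite sides of 0 in the 2 strains. Dkk3 in Ts1Rhr was the only gene of the 4 lists with an unadjusted limma p under 0.05 (0.0264, adjusted 0.795). Of all genes tested, 5.52% had such a p in Ts1Rhr and 2.80% in Dp3Tyb.

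In the ventricular list (Myl3, Hand1, Pln, Kcne1, Irx1, Irx2, Irx5 and Lbh) 0 of 8 rose and 0 fell in either strain, with medians of -0.10 in Dp3Tyb, where 7 of 8 estimates were below 0, and -0.02 in Ts1Rhr, where 4 of 8 were. The largest in Dp3Tyb were Kcne1 (-0.23 ± 0.16), which encodes a potassium channel subunit, Irx1 (-0.23 ± 0.14) and Lbh (-0.18 ± 0.09). In Ts1Rhr they were Kcne1 (-0.16 ± 0.16), Irx5 (0.11 ± 0.13) and Myl3 (0.08 ± 0.14). The summed change of such a list has no test here, and over all genes the median was near 0 in both strains.

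In the compact wall list (Hey2, Mycn, Tbx20 and Hand2) 0 of 4 rose and 0 fell, with medians of -0.12 in Dp3Tyb and -0.02 in Ts1Rhr. Its largest estimates were Hey2 (-0.16 ± 0.20), Mycn (-0.13 ± 0.14) and Tbx20 (-0.10 ± 0.08) in Dp3Tyb, and Mycn (0.21 ± 0.11), Hey2 (-0.19 ± 0.11) and Hand2 (-0.03 ± 0.20) in Ts1Rhr. In the trabecular list (Gja5, Irx3, Erbb2, Erbb4, Nrg1, Cited1, Slit3, Etv1 and Adamts1) 0 of 9 rose and 0 fell, with medians of 0.00 and 0.00. Nrg1, the neuregulin ligand that drives trabeculation, was estimated at 0.22 ± 0.11 in Dp3Tyb and 0.25 ± 0.21 in Ts1Rhr, and Cited1 at 0.19 ± 0.12 and 0.35 ± 0.16. The third place was held by Etv1 (-0.15 ± 0.18) in Dp3Tyb and by Erbb4 (-0.15 ± 0.11), a neuregulin receptor, in Ts1Rhr. None of these passed after adjustment in either strain.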

How the data were processed

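RNA from 20 whole hearts at E13.5 was sequenced as poly(A)-selected mRNA libraries on an Illumina HiSeq. The submitters' processing notes name Trimmomatic 0.36, STAR 2.5.2a, RSEM 1.2.31, DESeq and DESeq2 and the build GRCm38. Their order and the annotation release are not given in the sources used here, nor is strandedness. The authors deposited 1 table of normalised signal values for 48795 genes, reads divided by a size factor of each library, which corrects for depth and RNA composition but not for gene length. Whole reads were recovered from the deposited signal (100% of values whole within 0.01 read) and gave 6.60 to 19.6 M reads per heart, which sets counting error only for the rarest members. All columns were assigned by their names. Symbols were matched for 44565 genes (91.3%).

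Genes that reached a value of 10 in 5 or more libraries of a comparison were tested on log2(value + 1) with limma 3.58.1 (R 4.3.3, trended robust prior), each strain against its littermates and the difference between strains over all 20 hearts, with Benjamini-Hochberg adjustment over all genes and a threshold of 0.05. DESeq2 1.42.0 and edgeR 4.0.16 were run on the recovered reads as alternatives. The fold understates changes of low genes such as Sln. Ratios were compared by exact permutation of all 252 splits of a cohort (2-sided, smallest p 0.00794) and 63504 pairs of splits for the difference between strains, and relations by 100000 permutations within groups with Python 3.11.15 and numpy 2.4.6. The tests were tested on simulated data.

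The members, gene lists and tests were chosen with earlier results of these data known. The text names all 10 members, the 3 genes of each further list with the largest absolute change in each cohort, and the 5 genes most like Myl7, Myl2 and Nppb. Other settings tried were the pseudocount, the filter, TMM scaling, array weights, 1 fit of all 20 libraries, cardiomyocyte centring, and leaving out hearts. Of the further chamber gene lists, 1 atrial and 1 trabecular gene are not reported here and entered neither the counts nor the medians.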

Additional observations from a re-analysis of the deposited data

Results flagged for a closer look

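In 5 of 56 groups of 5 hearts, covering the 10 members and the 4 ratios in each of 4 groups, 1 heart lay farther from the rest than Dixon's 95% limit for 5 samples allows. Chance gives this in about 1 in 20 separate groups of normally distributed values. The 56 groups share hearts and the ratios reuse the members, so the count cannot be set against that rate. Nppa stood at 18652 in Ts1Rhr 3, whereas the other Ts1Rhr hearts ranged from 10353 to 11868. Nppb stood at 301 in WT_Ts1Rhr 5 against 821 to 1016 in its group, and the ratio of Nppa to Nppb in the same heart was 37.9 against 10.3 to 13.1. Myl2 stood at 60491 in WT_Dp3Tyb 5 against 36371 to 41508. The ratio of Myl4 to Myl7 was 1.32 in Dp3Tyb 5 against 1.77 to 1.93. WT_Dp3Tyb 5 and Dp3Tyb 5 had over 10% mitochondrial reads, and the part of this in their values was not tested. Ts1Rhr 3 and WT_Ts1Rhr 5 had 5.50% and 5.84%.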

How the results depend on the processing

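No analysis paired by litter or batch was possible because the labels give no litter, batch or replicate number that pairs hearts. The numbers used here follow the order of deposition and only name the hearts. Libraries of WT and mutant hearts alternate in that order, and a pairing of neighbours was not run. None of the 10 members passed the threshold of 0.05 under any setting tried. The cause of the changes below was not tested.

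The number of all genes called in Dp3Tyb (8) became 57 with array weights, 30 with DESeq2, 17 in 1 fit of all libraries, 4 with no filter, 0 relative to cardiomyocyte genes and 30 without hearts over 10% mitochondrial reads. In Ts1Rhr (4) it became 16, 25, 11, 1 relative to cardiomyocyte genes, and 0 both without those hearts and without the 2 hearts labelled with defects. The difference (2) became 0 with no filter, relative to cardiomyocyte genes, with TMM and without the labelled hearts. Leaving out single hearts gave 2 to 13, 1 to 6 and 0 to 3.

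Under settings other than leaving out single hearts, some estimates turned sign, most of them near 0, whereas Sln in Ts1Rhr turned from 0.30. For Sln only WT_Ts1Rhr 3 and 5 were then left as WT, and WT_Ts1Rhr 5 was its highest heart. Relative to cardiomyocyte genes, in Ts1Rhr Myl7 became 0.0068, Myh7 0.037, Irx4 0.034 and Hand2 0.022, and in Dp3Tyb Myl4 0.089 and Tbx20 0.0045. With array weights Myl4 in Dp3Tyb became 0.014 and Myh6 in Ts1Rhr -0.096. Bmp10 in Dp3Tyb became -0.0063 with DESeq2 and -0.0033 with edgeR. Without hearts over 10% mitochondrial reads Myl4 in Dp3Tyb became 0.0059, and in Ts1Rhr Sln -0.053, Hand2 0.090 and Myl3 -0.040. Without the labelled hearts, in Ts1Rhr Myh6 became -0.11, Bmp10 -0.019 and Myh6 to Myh7 -0.025. The same omission kept the sign but moved Myl2 from -0.16 to -0.29, Nppa from 0.17 to 0.29 and Myl7 from -0.05 to -0.15.

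Among ratios without hearts over 10% mitochondrial reads, Myh6 to Myh7 in Dp3Tyb became 0.19 and lost the unadjusted threshold, and the difference between strains became -0.041 for Myl7 to Myl2 and 0.37 for Nppa to Nppb. Leaving out single hearts, ratios ranged from 0.17 to 0.24 for Myh6 to Myh7 in Dp3Tyb, -0.013 to 0.14 in Ts1Rhr, -0.10 to 0.080 for Myl4 to Myl7 in Dp3Tyb, 0.094 to 0.14 for Myl7 to Myl2 in Ts1Rhr, -0.030 to 0.087 for its difference, -0.26 to 0.21 for Nppa to Nppb in Ts1Rhr and -0.44 to 0.034 for its difference.

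Leaving out single hearts turned some genes. In Dp3Tyb Nppb ranged from -0.027 to 0.19, Myl7 from -0.036 to 0.071, Myl4 from -0.061 to 0.044, Myh6 from -0.047 to 0.11, Bmp10 from -0.064 to 0.16, Etv1 from -0.28 to 0.0034, Hey2 from -0.28 to 0.017 and Nr2f2 from -0.015 to 0.13. In Ts1Rhr Nppb ranged from -0.030 to 0.41, Myl7 from -0.092 to 0.014, Myh6 from -0.016 to 0.12, Myh7 from -0.081 to 0.051, Bmp10 from -0.025 to 0.17, Irx4 from -0.082 to 0.036, Hand2 from -0.16 to 0.093 and Myl3 from -0.013 to 0.17. The difference for Myl7 ranged from -0.013 to 0.12.

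Among relations, the Ts1Rhr cohort alone gave r of 0.66 for Myl2 and Myh7, 0.63 for Myh6 and Myh7, 0.076 for Nppa and Bmp10 and -0.11 for Myl7 and Sln, and the Dp3Tyb cohort 0.047 for Sln and Myl4. Without hearts over 10% mitochondrial reads r was 0.85 for Myl7 and Myl4, 0.88 for Myl2 and Irx4, 0.78 for Nppa and Bmp10, 0.57 for Nppa and Myl7, 0.030 for Sln and Myl4 and -0.084 for Myl7 and Sln. Without the 2 farthest hearts it was -0.074 for Myl7 and Sln. Relative to cardiomyocyte genes it was 0.69 for Myl2 and Myh7, 0.51 for Myh6 and Myh7, 0.44 for Myl7 and Myl2, -0.23 for Myl7 and Myl4, -0.28 for Myl2 and Irx4 and -0.24 for Myl7 and Sln. Of the alternative values, 220 of 254 for ratios and relations and 904 of 962 for single genes kept their direction and side of the threshold. In sign 22 and 58 turned, and among ratios and relations 7 lost and 5 gained the threshold. Of 306 counts of genes, 258 stayed within 1.5 times and 48 did not. The 306 include counts of called members, which were 0 under every setting, so this share does not measure stability. The counts of all genes, given above, moved under many settings.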
